A study of Mus musculus with 28 samples.

Results

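The Eph receptor family was followed through the 3-week-old mouse brain by 10 of its genes, Epha3, Epha4, Epha5, Epha6, Epha7, Epha8, Ephb1, Ephb2, Ephb3 and Ephb6, out of 20660 named genes on the array. A gene was measured by the probes whose transcript accession carries its symbol, and by the probe with the highest mean signal where it had several. The material came from 3 male C57BL/6J mice at 3 weeks of age, and no treatment or altered gene is given for any of them. Each brain was cut in 1 direction only: mouse 1 gave 12 coronal fractions, mouse 2 gave 6 horizontal fractions and mouse 3 gave 10 sagittal fractions. RNA of every fraction was labelled with Cy3 and read on 1 array, so that a fraction has no replicate and a plane is 1 animal. By RefSeq (GRCm38.p6) Epha4 is on chromosome 1, Epha7, Epha8 and Ephb2 on 4, Epha5 on 5, Ephb6 on 6, Ephb1 on 9, and Epha3, Epha6 and Ephb3 on 16. The last coronal sample is labelled with fractions 12 and 13 together.

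Eph receptors are the largest family of receptor tyrosine kinases, and their ligands, the ephrins, are themselves held at the surface of neighbouring cells. The A receptors chiefly bind the ephrin-A ligands, which sit on a lipid anchor, and the B receptors bind the ephrin-B ligands, which cross the membrane. Contact signals into both cells; in the developing brain it repels or holds growing axons and orders topographic maps, and in the young and adult brain it acts at dendritic spines and synapses. Ephb6 is known for a kinase domain that lacks catalytic activity.

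A level is given as the log2 signal relative to the 75th percentile of its own array. It can be set against the same probe on other arrays, not against another probe. The receptors had 14 probes in all, 3 of the genes having several. Of the 10 chosen probes, 9 stood well above background on all 28 arrays, and the Epha3 probe did so on 27. The 75th percentile itself ran from 135 in sagittal fraction 1 to 574 in coronal fraction 4, and between 24822 and 34240 probes per array were well above background. The median of an array lay between -2.63 and -1.63 on this scale, so that dividing by the median in place of the percentile shifts arrays against each other. Landmark genes fixed the axes: hindbrain and cerebellar genes were highest in coronal fractions 1 to 3 and olfactory bulb genes in fractions 11 and 12, cortical genes were highest in horizontal fraction 1 and hypothalamic genes in fraction 6, and midbrain genes were highest in sagittal fractions 5 and 6. In whole fractions, fewer cells of a type and less RNA per cell cannot be told apart.

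The question put to each plane was whether a receptor's level changes with position along the axis. A smooth curve of the fraction number was fitted with limma over all 32118 tested probes, and a gene was called at a Benjamini-Hochberg adjusted p under 0.05. Along the coronal axis 8 of the 10 receptors were called, against 33.6% of all tested probes. These coronal arrays lay on 3 slides: with the slide as a term none of the 8 calls was kept (0.744% of all probes called), and within the 8 fractions of 1 slide 5 receptors were called (12.8% of all probes). Coronal p-values below are those without the slide. Along the horizontal axis 3 were called (Ephb6, Epha8 and Ephb1), against 15.8% of all probes, and along the sagittal axis 3 (Epha5, Ephb3 and Ephb1), against 14.8%. The fitted difference between the highest and lowest point of the curve had a median of 2.04 over the receptors in the coronal plane, against 0.90 over all tested probes. It was 1.09 against 0.75 in the horizontal plane and 1.58 against 1.06 in the sagittal plane. Epha3 and Ephb2 were called in no plane. Ephb1 was called in all 3, but with the slide as a term it was called in neither the coronal plane (adjusted p = 0.206) nor the sagittal plane (0.0851). Its sagittal call also ended without any 1 of fractions 1 to 8 (adjusted p up to 0.224) and with arrays scaled on their median (0.138), and its horizontal call without fraction 1, 2, 3, 4 or 6 (up to 0.177) and with no filter on dim probes (0.0718).

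**Figure D1:**
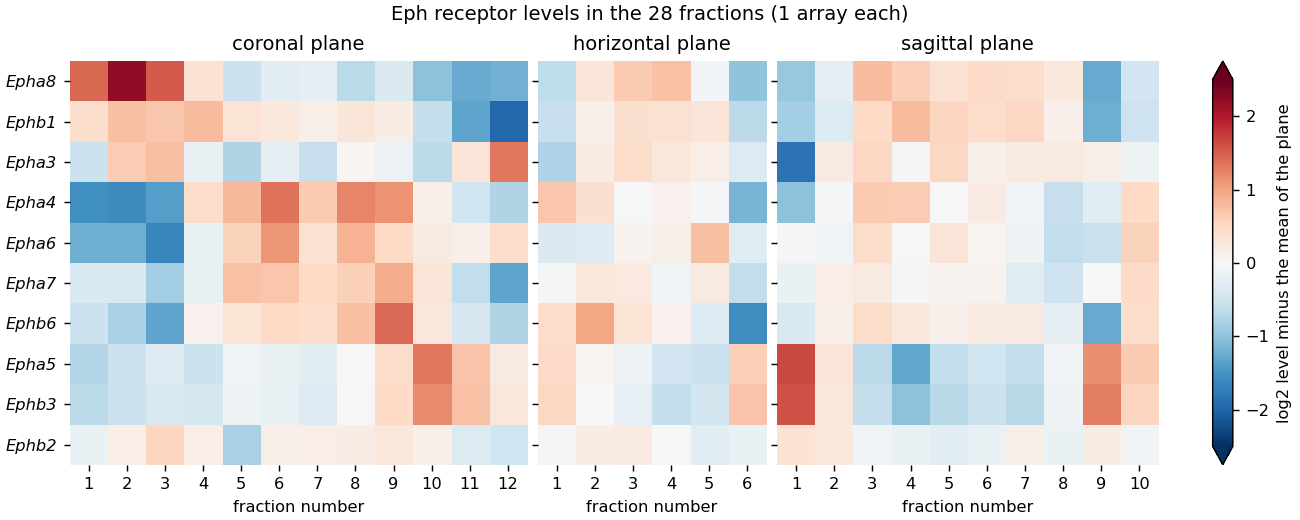
Heatmap of the 10 receptors (rows) in the 12 coronal, 6 horizontal and 10 sagittal fractions (columns). The colour is the log2 level minus the gene's mean over the plane, from 1 array per fraction; Epha8 is high in coronal fractions 1 to 3, Epha4, Epha6, Epha7 and Ephb6 are high in the middle coronal fractions, and Epha5 and Ephb3 share a pattern in all 3 planes.

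Epha8, a receptor for ephrin-A ligands, was the most caudal member. Its coronal levels had a lowest value of 0.44 in fraction 11, a median of 1.38 and a highest value of 3.91 in fraction 2, an 11.1-fold difference. Fractions 1, 2 and 3 stood at 3.12, 3.91 and 3.23, fraction 4 at 2.05, and the 8 fractions from 5 to 12 between 0.44 and 1.45. The fitted difference was 3.37 with a residual SD of 0.49 around the curve (limma adjusted p = 0.00213). Ephb1, a receptor for ephrin-B ligands that is known from the sorting of retinal axons at the optic chiasm, was high through the caudal and middle brain and low at the front. It stood between 2.56 and 3.21 in coronal fractions 1 to 9, at 1.82 in fraction 10, at 1.09 in fraction 11 and at 0.44 in fraction 12, which was the lowest value of the plane around a median of 2.70. Its fitted difference of 2.58, with a residual SD of 0.23, gave the smallest adjusted p of the 10 receptors in this plane (0.00037).

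Over the 28 fractions, with each plane's mean subtracted, the profiles of Epha8 and Ephb1 had a Pearson's r of 0.79 (0.70 coronal, 0.92 horizontal, 0.98 sagittal). Such correlations describe fractions that neighbour each other and share an animal and an array scale, and no p is given for them. The upstream sequences of this pair are shown because the pair moved together while differing in base composition. They are the 250 bases before the annotated start, 5′ to 3′, from RefSeq (GRCm38.p6), with GGGCGG on either strand in capitals. The Epha8 window is chr4:136956817-136957066 and the Ephb1 window chr9:102354694-102354943, both on the minus strand.
Epha8: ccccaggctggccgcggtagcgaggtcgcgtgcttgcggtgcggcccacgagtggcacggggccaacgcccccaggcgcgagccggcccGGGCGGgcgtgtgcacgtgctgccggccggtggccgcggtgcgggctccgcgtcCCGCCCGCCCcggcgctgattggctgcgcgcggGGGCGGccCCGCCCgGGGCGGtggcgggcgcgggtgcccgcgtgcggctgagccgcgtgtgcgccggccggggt
Ephb1: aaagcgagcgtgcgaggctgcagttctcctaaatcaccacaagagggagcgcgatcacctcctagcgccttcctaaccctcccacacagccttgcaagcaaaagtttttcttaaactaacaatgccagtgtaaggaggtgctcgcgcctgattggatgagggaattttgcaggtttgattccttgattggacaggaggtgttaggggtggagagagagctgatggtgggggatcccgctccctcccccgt
The Epha8 window held 46 CG dinucleotides, 84.0% G and C and 6 matches to GGGCGG, overlapping ones counted apart, whereas the Ephb1 window held 10 CG dinucleotides, 54.0% G and C and no match.

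The group high in the middle coronal fractions was Epha4, Epha6, Epha7 and Ephb6. Epha4, which binds ephrins of both classes, stood at -0.85, -0.90 and -0.70 in coronal fractions 1 to 3 and between 1.14 and 2.04 in fractions 4 to 9, with a plane median of 0.97 and the peak in fraction 6. It was back at 0.17 and -0.08 in fractions 11 and 12. The fitted difference was 3.15 with a residual SD of 0.48 (adjusted p = 0.00246), and the highest fraction was 7.70-fold above the lowest. Epha6, another A receptor, had its 3 lowest coronal values in the same fractions (-2.40, -2.40 and -2.81), a median of -0.88 and its highest value, -0.08, in fraction 6. It kept between -1.06 and -0.73 in fractions 10 to 12, so that its rostral end was not as low as its caudal end (fitted difference 2.37, residual SD 0.51, adjusted p = 0.0135).

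Epha7, an A receptor with a role in cortical and thalamocortical mapping, was low at both ends of the brain. Its levels ran from -1.89 in coronal fraction 12 through a median of -0.51 to 0.35 in fraction 9, and fractions 5 to 9 stood between -0.06 and 0.35, above every other fraction. The fitted difference was 2.20 with a residual SD of 0.34 (adjusted p = 0.00496). Both other Epha7 probes were also called in the coronal plane, with fitted differences of 3.35 (adjusted p = 0.000534) and 1.58 (adjusted p = 0.0472), and over 28 fractions they had r values of 0.96 and 0.83 with the chosen probe. Ephb6 had its lowest coronal value, 2.11, in fraction 3, a median of 3.62 and a peak of 4.84 in fraction 9, which stood 0.66 above fraction 8, the next highest (fitted difference 1.88, residual SD 0.44, adjusted p = 0.0126). Its second probe was well above background on 16 of 28 arrays and was not called in any plane. The r of the 2 Ephb6 probes was 0.13 over 28 fractions. By plane it was 0.51, 0.11 and -0.81 (coronal, horizontal, sagittal).

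**Figure D2:**
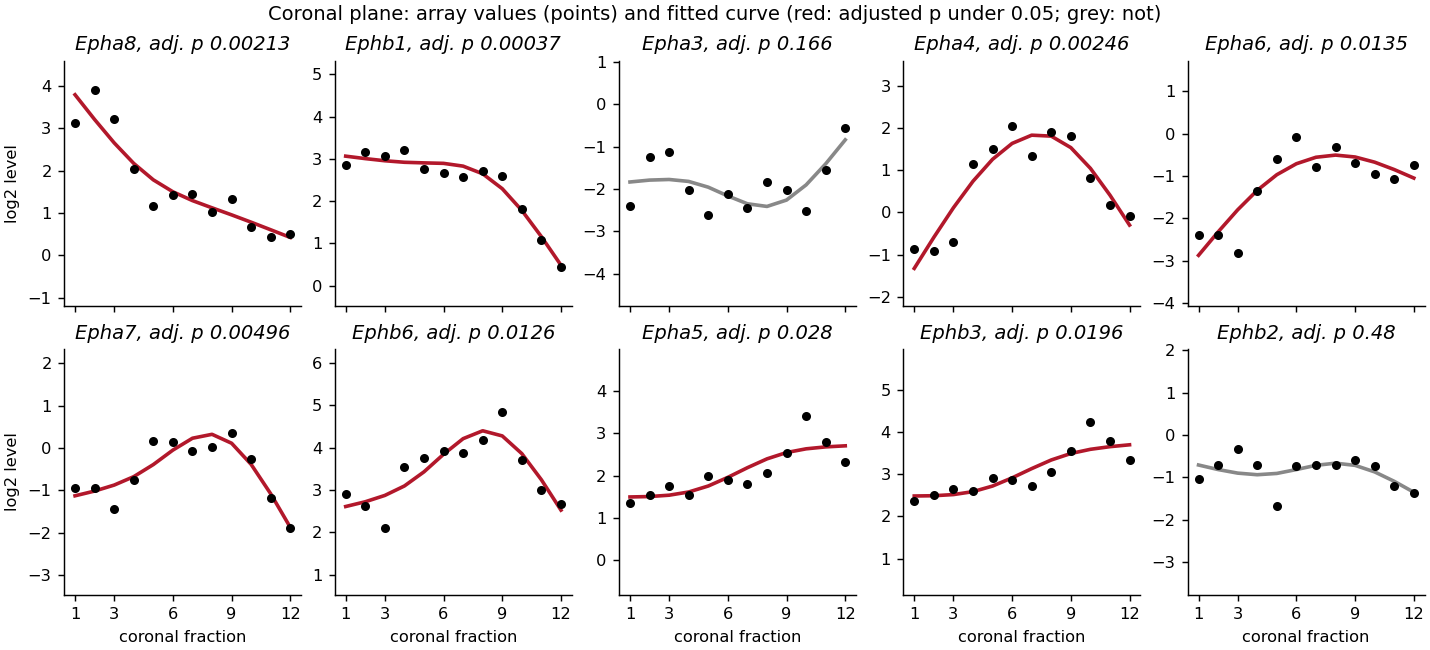
Levels of the 10 receptors in the 12 coronal fractions (points, 1 array each; log2 relative to the array's 75th percentile) with the fitted curve of the fraction number. Red curves mark the 8 receptors with an adjusted p under 0.05 and grey curves Epha3 and Ephb2; every panel spans the same number of log2 units, and fraction 1 is the caudal end.

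Within the group high in the middle coronal fractions, Epha4 had r values of 0.83 with Ephb6, 0.79 with Epha7 and 0.75 with Epha6 over the 28 fractions. In the horizontal plane the likeness of Epha4 and Epha6 was absent (r = -0.02), while that of Epha4 and Ephb6 was 0.92. Among 13 lists of landmark genes, the cerebral cortex list was the most like Epha4 (r = 0.89), Ephb6 (0.83) and the chosen Epha7 probe (0.83), and the cerebellum list the most like Epha8 (0.86). For Ephb1 it was the myelin list (0.74), ahead of the cerebellum list (0.60). Both other Epha7 probes were most like the hippocampus list (0.84 and 0.66). Epha6 was about as like the striatum list (0.58) as the cerebral cortex list (0.58), and with the latter its r was -0.41 in the horizontal plane. The part of each fraction's tissue composition in the receptor levels was not tested. The upstream windows of Epha4 and Ephb6, the most alike pair of the group, are shown in the same form: chr1:77515089-77515338 on the minus strand and chr6:41605261-41605510 on the plus strand.
Epha4: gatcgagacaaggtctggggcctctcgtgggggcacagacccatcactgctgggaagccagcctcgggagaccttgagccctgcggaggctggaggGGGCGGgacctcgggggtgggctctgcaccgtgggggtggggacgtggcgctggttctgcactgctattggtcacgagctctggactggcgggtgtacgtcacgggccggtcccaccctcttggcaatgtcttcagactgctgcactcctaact
Ephb6: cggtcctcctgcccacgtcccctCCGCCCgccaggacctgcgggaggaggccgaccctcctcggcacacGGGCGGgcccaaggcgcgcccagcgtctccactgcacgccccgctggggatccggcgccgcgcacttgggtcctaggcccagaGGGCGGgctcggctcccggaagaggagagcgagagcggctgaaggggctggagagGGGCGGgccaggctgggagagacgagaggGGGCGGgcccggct
Epha4 held 14 CG dinucleotides, 66.0% G and C and 1 GGGCGG match, and Ephb6 held 27, 76.8% and 5. Over all 10 receptors the median was 18 CG dinucleotides, with a range from 10 to 46, against 6 in the 32851 windows of the table. GGGCGG or its reverse complement was in 7 of the 10 windows and in 32.7% of all windows; CCAAT or its reverse complement was in 6 and in 33.8%; TATAAA or its reverse complement was in 0 and in 12.4%. These matches describe letters in a window, and no binding was measured.

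Epha5 and Ephb3 shared another pattern, given here with the signal of the arrays beside it. Epha5, an A receptor known from hippocamposeptal mapping, had coronal levels from 1.35 in fraction 1 through a median of 1.95 to 3.40 in fraction 10, and Ephb3, a B receptor known from the forming corpus callosum, from 2.37 in fraction 1 through 2.89 to 4.23 in fraction 10. Both were called in this plane (fitted differences 1.21 and 1.21, adjusted p = 0.0280 and 0.0196), but Epha5 was not without fraction 2, 4, 9 or 11 (adjusted p up to 0.0793), nor Ephb3 without fraction 11 (0.0605). In the sagittal plane Epha5 ran from 0.68 in fraction 4 through 1.70 to 3.64 in fraction 1, and Ephb3 from 2.16 in fraction 4 through 2.85 to 4.78 in fraction 1. Fraction 9 was the second highest for each, at 3.14 and 4.46. The sagittal fitted differences of 2.60 and 2.47 were called (adjusted p = 0.0172 and 0.0238), with residual SDs of 0.41 and 0.43. Both calls ended with arrays scaled on their median (adjusted p = 0.161 and 0.168), with quantile normalization (0.0527 and 0.0694), within 1 slide (0.707 and 0.714) and without fractions 1 and 9 (0.0862 and 0.0677). Each also ended without fraction 1, 3 or 4 (up to 0.178 and 0.199), and that of Ephb3 without fraction 2 or 6 as well.

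Over the 28 fractions the 2 profiles had an r of 0.99, the highest of the 45 receptor pairs, which ran from -0.79 to 0.99 with a median of 0.01. Their levels also followed the scale of the arrays inversely, with r values of -0.80 for Epha5 and -0.86 for Ephb3 against the log2 75th percentile of the array. An r under -0.8 was found for 4.51% of the tested probes, and the median over all of them was -0.09. Before scaling, the Ephb3 signal of the sagittal fractions ran from 2162 to 4015, a 1.86-fold span, while the 75th percentile spanned 4.20-fold and the scaled level 6.16-fold. For Epha5 the signal spanned 1.98-fold and the scaled level 7.78-fold. Neither gene was called in the horizontal plane (adjusted p = 0.143 and 0.0938), but with normexp background Ephb3 was (0.0366) and Epha5 was not (0.0833). In that plane both signals spanned less than the 75th percentile did, 1.27-fold and 1.30-fold against 1.97-fold. In the coronal plane both spanned more, 2.86-fold and 2.60-fold against 2.28-fold. Over the 28 fractions both ran against the myelin list (r = -0.77 for Epha5 and -0.78 for Ephb3) and the cerebellum list (-0.67 and -0.68). No landmark list had an r above 0.37 with either over these fractions. By plane (coronal, horizontal, sagittal) the meninges list had 0.19, 0.87 and 0.39 with Epha5 and 0.22, 0.89 and 0.34 with Ephb3. The olfactory bulb list had 0.56, -0.43 and -0.39 with Epha5 and 0.60, -0.53 and -0.45 with Ephb3. The part of the array scale and of tissue composition in the Epha5 and Ephb3 patterns was not tested.

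The second Epha5 probe had another pattern. It rose from -0.40 in coronal fraction 1 to 2.50 in fraction 12, around a median of 0.85, with a fitted difference of 2.95 (residual SD 0.34, adjusted p = 0.00179). Its lowest coronal values were those of fractions 1 to 3, between -0.40 and -0.21, and no other fraction reached as low. Its r with the chosen Epha5 probe was 0.03 over 28 fractions, and by plane it was 0.59, -0.79 and -0.59 (coronal, horizontal, sagittal). It was not called along the horizontal axis (adjusted p = 0.228) or the sagittal axis (adjusted p = 0.307). Both Epha5 probes were thus called in the coronal plane, and in the sagittal plane the chosen probe alone. Ephb3 has 1 probe, so no second reading of it exists here.

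**Figure D3:**
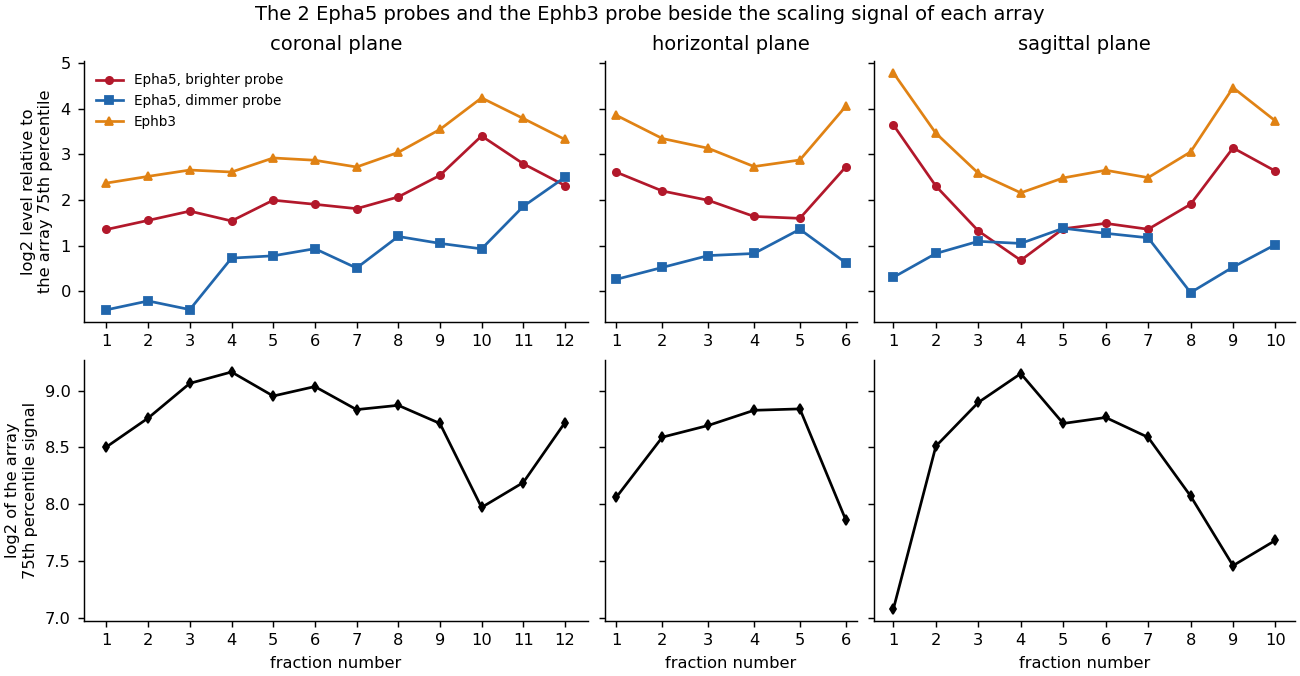
Upper row: log2 level relative to the array's 75th percentile of the 2 Epha5 probes and the Ephb3 probe by fraction number. Lower row: log2 of that 75th percentile; the brighter Epha5 probe and Ephb3 peak in coronal fraction 10 and sagittal fractions 1 and 9, where the percentile is low, and the dimmer Epha5 probe does not.

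Epha3 and Ephb2 were not called in any plane. Epha3, an A receptor, had its highest coronal value, -0.56, in fraction 12, and its next highest in fractions 3 and 2 (-1.13 and -1.24), around a median of -2.03 and a lowest value of -2.63 in fraction 5. Its residual SD of 0.55 was the largest of the 10 receptors in this plane (adjusted p = 0.166). In the horizontal plane its fitted difference was 1.12 with a residual SD of 0.17 (adjusted p = 0.0535), and it was called there with arrays scaled on their median (0.00849), with quantile normalization (0.0311) and with the stricter filter on dim probes (0.039). In the sagittal plane the adjusted p was 0.131. Ephb2, which acts in dendritic spines and binds NMDA receptors, had the smallest spans under the percentile scaling: from -1.68 in coronal fraction 5 to -0.33 in fraction 3 around a median of -0.73, and within 0.48 in the horizontal plane and 0.63 in the sagittal plane (adjusted p = 0.480, 0.341 and 0.296). With arrays scaled on their median it was called in the horizontal plane (fitted difference 1.43, adjusted p = 0.0187), where Ephb3 (0.48) and Epha5 (0.55) then had smaller fitted differences.

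Along the horizontal axis Epha8 and Ephb1 were lowest in fractions 1 and 6. Epha8 stood at 1.07 and 0.68 in fractions 1 and 6 and between 1.63 and 2.43 in the others, around a median of 1.81 (fitted difference 1.77, residual SD 0.09, adjusted p = 0.0201). Ephb1 stood at 1.78 and 1.70 in the same fractions and between 2.50 and 2.77 in the others, around a median of 2.59 (1.06, residual SD 0.18, adjusted p = 0.0481). The arrays of fractions 1 and 6 had the lowest 75th percentiles of the plane, 267 and 233 against 385 to 458, and over the 6 arrays the level followed the log2 percentile with an r of 0.88 for Epha8 and 0.98 for Ephb1. Before scaling, their signals spanned 6.57-fold and 4.02-fold, against 1.97-fold for the percentile. The part of the array scale in the low ends was not tested. Ephb6 was highest in fraction 2 at 4.35 and lowest in fraction 6 at 1.83, around a median of 3.60 (fitted difference 2.11, residual SD 0.28, adjusted p = 0.0260). Fraction 6 held 5 of the 10 receptors' lowest horizontal values. Epha4 gave -0.11 there and 1.74 in fraction 1 (adjusted p = 0.0720). It was called along this axis with arrays scaled on their median (0.012), with normexp background (0.0211) and without fraction 5 (0.0447). With 6 fractions the calls of Epha8, Ephb1 and Ephb6 were fragile. Without fraction 3 or fraction 4 limma called 0 of all probes (9955 and 7622 at an unadjusted p under 0.05). Without fraction 6 it called none of the 10 receptors and 1314 of all probes. The calls of Epha8, Ephb1 and Ephb6 also ended with 1 spline degree of freedom fewer (adjusted p = 0.903, 0.993 and 0.232), where 1 of all probes was called.

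Along the sagittal axis Ephb1 was lowest in the outer fractions, with 1.10 in fraction 9, 1.47 in fraction 1 and 1.80 in fraction 10, and highest in fraction 4 with 3.11, around a median of 2.61 (fitted difference 1.62, residual SD 0.38, adjusted p = 0.0484). Epha8 ran from 0.63 in fraction 9 through a median of 2.22 to 2.67 in fraction 3 (adjusted p = 0.0876). Epha4 ran from -0.11 in fraction 1 through 0.89 to 1.56 in fraction 3 (adjusted p = 0.0515). Epha6, Epha7 and Ephb6 spanned 2.28-fold, 2.00-fold and 3.32-fold (adjusted p = 0.416, 0.258 and 0.559). None of these 5 receptors was called, but Epha4 was with normexp background (0.0149), no filter on dim probes (0.0379) and the stricter filter (0.0381), and Epha8 was with normexp background (0.0153). Fractions 1, 9 and 10 had the 3 lowest 75th percentiles of all arrays, 135, 176 and 205, and over the 10 sagittal arrays the level followed the log2 percentile with an r of 0.91 for Ephb1 and 0.90 for Epha8. Before scaling, the signal ran from 375 to 4893 for Ephb1 and from 263 to 3208 for Epha8, while the percentile spanned 4.20-fold. The part of the array scale in these levels was not tested. Sagittal fractions 1 and 10, 2 and 9, and so on to 5 and 6 are mirror pairs in number, though whether they mirror each other in the brain is not stated. Between such pairs Ephb2 differed by a median of 0.09 and Epha4 by a median of 0.72. For Epha3 the difference between fractions 1 and 10 has no measured size, fraction 1 being the single array on which its probe was not well above background. In fraction 1 the cerebellar, choroid plexus and myelin landmark lists stood at -5.39, -4.06 and -2.99 relative to their sagittal means. The part of these in the receptor values was not tested. Without fraction 1 limma called 0 of all probes in this plane, with 5910 at an unadjusted p under 0.05, and none of the 10 receptors. None of them was called without fraction 3 (2250 of the 32118 probes called) or fraction 4 (2079) either. Among the receptors 1 was called without fraction 2 (8.58% of all probes called) or fraction 6 (6.25%). Without fraction 9 there were 5 (38.8% of all probes) and without fraction 10 there were 6 (47.1%). With arrays scaled on their median no receptor was called, and 321 of all probes were.

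Coronal fractions 1 and 2, 3 to 10, and 11 and 12 were on 3 slides. With the slide as a term 0 of the 10 receptors were called, and their adjusted p ran from 0.171 to 0.859 (5345 of all probes, 7 of the receptors among them, had an unadjusted p under 0.05), with fitted differences of 2.79 for Epha8, 2.31 for Ephb1 and 3.85 for Epha4. Within coronal fractions 3 to 10, on 1 slide, the 5 receptors called were Epha5, Epha6, Epha7, Epha8 and Ephb3. Epha4 (adjusted p = 0.0637), Ephb1 (0.0838) and Ephb6 (0.103) were not. Slide and the ends of the coronal axis cannot be told apart. Sagittal fractions 1 to 4 and 5 to 10 were on 2 slides; with the slide as a term Epha5 (adjusted p = 0.0273) and Ephb3 (0.0450) were called and Ephb1 was not, against 7.82% of all probes called, and within fractions 5 to 10 no receptor was, with 0% of all probes called and 2307 at an unadjusted p under 0.05. The horizontal arrays shared 1 slide.

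With 1 array per fraction the residual around the curve is the one available error. When the fractions were ordered by level, the gap between neighbours in that order was larger than the gene's residual SD in 18 of 110 coronal gaps, 19 of 50 horizontal gaps and 15 of 90 sagittal gaps. The largest coronal gaps were 1.07 for Epha8, between fractions 4 and 1, and 1.05 for Epha6, between fractions 1 to 3 and the rest. For Ephb2 no coronal gap exceeded its residual SD of 0.38.

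Of the 8 ephrins, the ligands of the family, 3 were called along the coronal axis, 2 along the horizontal and 1 along the sagittal, against 33.6%, 15.8% and 14.8% of all probes. In the coronal plane Efnb1 rose rostrally (from 0.87 in fraction 3 to 2.86 in fraction 12; fitted difference 1.52, adjusted p = 0.00541), Efnb2 was higher in the forebrain (0.16 in fraction 3, 1.69 in fraction 8; 1.30, adjusted p = 0.0162), and Efna1 fell rostrally (0.76 in fraction 3, -0.51 in fraction 9; 1.11, adjusted p = 0.00384). In the horizontal plane Efnb3 rose from 2.05 in fraction 1 to 4.71 in fraction 5 (2.48, adjusted p = 0.0201), and Efna2 was called on its values of 2.61 in fraction 6 and 0.60 in fraction 1, the other 4 fractions lying between -1.35 and -0.13 (4.05, adjusted p = 0.0221). In the sagittal plane Efna3 was called, with 1.65 in fraction 1 (1.86, adjusted p = 0.0398), while its second probe was not (adjusted p = 0.329). Efna2 was not called there, although 1 array, fraction 9, gave 4.34 and the 9 others between -1.45 and -0.77.

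Among the 80 receptor and ligand pairs, 4 had an r above 0.7 over the 28 fractions and 2 had one below -0.7, around a median of -0.03. Epha6 and Efnb2 had 0.82, Epha8 and Efna1 0.81, Epha5 and Efna3 0.74, and Ephb3 and Efna3 0.71. Efnb3 gave -0.71 with Epha5 and -0.71 with Ephb3. Epha8 with Efna1 and Epha5 with Efna3 are pairs of an A receptor and an A ligand. By plane (coronal, horizontal, sagittal) their r was 0.90, 0.32 and 0.72 for the former and 0.81, 0.62 and 0.73 for the latter. For Epha6 and Efnb2 it was 0.88, 0.26 and 0.82, and for Ephb3 and Efna3 0.81, 0.55 and 0.71. The Epha5 values are those of its chosen probe alone.

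**Figure D4:**
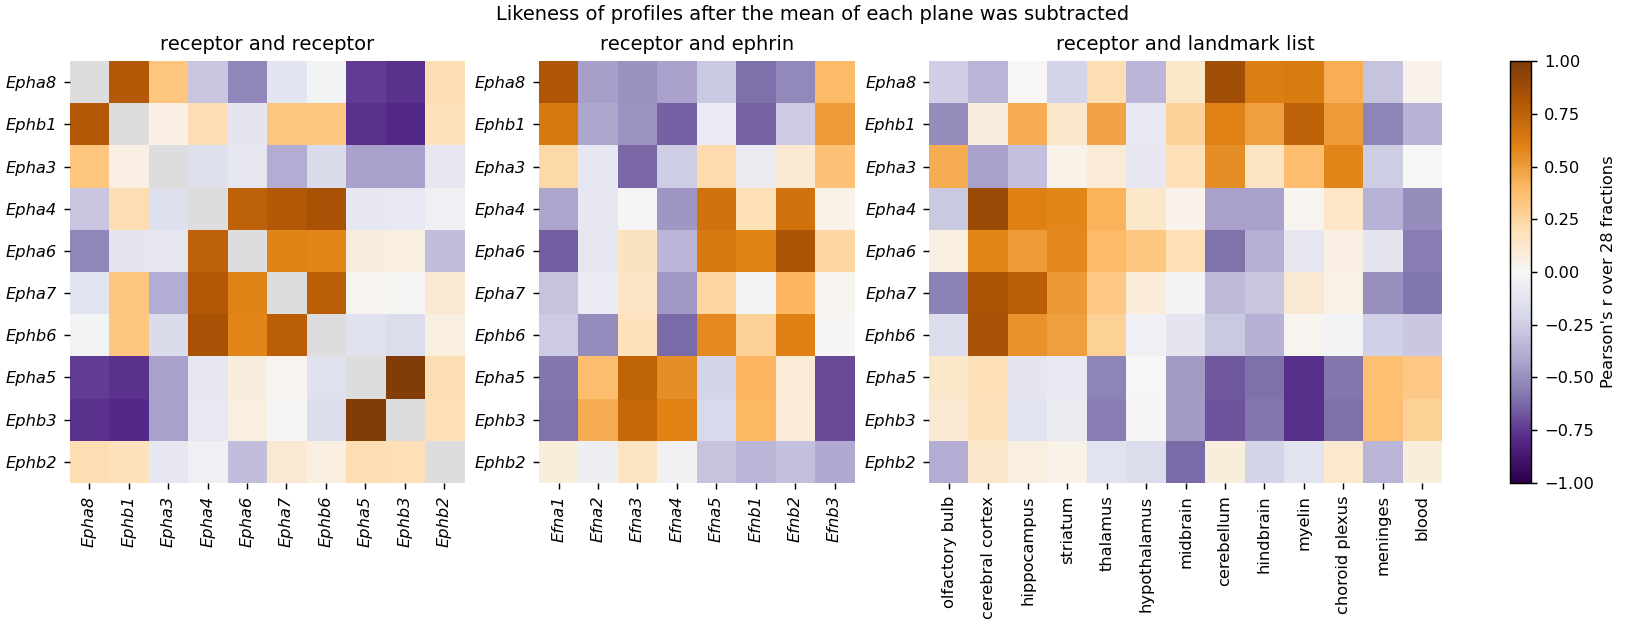
Pearson's r between profiles over the 28 fractions, each plane's mean subtracted: receptors with each other (left, own cell grey), with the 8 ephrins (middle) and with the mean of 13 landmark gene lists (right). Epha4, Epha6, Epha7 and Ephb6 form a block with values of 0.58 to 0.83; with the cerebral cortex list Epha4, Epha7 and Ephb6 reach 0.83 to 0.89 and Epha6 0.58.

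Of the 4 other Eph receptor genes on the array, Epha2 and Ephb4 were called in the coronal plane. Epha2 was highest at both ends of the coronal axis, with -0.40 in fraction 12 and -0.86 in fraction 1 against -2.54 in fraction 9 (fitted difference 2.08, adjusted p = 0.00137), and it was called in the horizontal plane (1.20, adjusted p = 0.0283). Ephb4, best known from veins, was also higher at both ends, with -0.15 in fraction 12 and -0.49 in fraction 1 against -1.41 in fraction 8 (1.30, adjusted p = 0.00332), and its second probe missed the threshold (adjusted p = 0.0521). Epha1 and Epha10 were well above background on 18 and 11 of the 28 arrays and were called in no plane. Of 34 signalling partners of the family, 15 were called in the coronal plane, 9 in the horizontal and 2 in the sagittal, against 33.6%, 15.8% and 14.8% of all probes. The largest differences among the partners called in the coronal plane were those of Kalrn, the spine regulator kalirin (5.10, adjusted p = 0.000698), Ptpro, a phosphatase that acts on Eph receptors (4.07, adjusted p = 0.00115), and Ngef, the exchange factor ephexin-1 (4.06, adjusted p = 0.00140). Among those called in the horizontal plane Kalrn (2.71), Itsn1 (1.82), the exchange factor intersectin-1, and Ptpro (1.76) led, with adjusted p = 0.0169, 0.0368 and 0.0253; none of the 5 other Itsn1 probes was called there. Both sagittal calls were exchange factors, Arhgef15 (2.52, adjusted p = 0.00952) and Vav3 (1.78, adjusted p = 0.0258). The median fitted difference of the partners was 1.19 in the coronal plane, 0.69 in the horizontal and 0.85 in the sagittal, against 0.90, 0.75 and 1.06 over all probes.

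Outside the family, 14393 named genes were set against each receptor for likeness of profile. Epha8 was most like Rgs8 (r = 0.98) and Ptprr (0.97), and Ephb1 most like Eml1 (0.96) and Larp6 (0.94). Epha4 was most like Lonrf1 (0.96) and Sort1 (0.95), Epha6 most like Dapk1 (0.93) and Grin2b (0.93), Epha7 most like Unc5a (0.92) and Mal2 (0.91), and Ephb6 most like Map9 (0.93) and Pcsk2 (0.93). By plane (coronal, horizontal, sagittal) Epha6 had 0.98, 0.56 and 0.82 with Dapk1 and 0.98, 0.55 and 0.76 with Grin2b. Likewise Epha7 had 0.98, 0.92 and 0.53 with Unc5a and 0.95, 0.65 and 0.74 with Mal2. Epha3 was nearest to Jade1 (0.90) and Zfp385b (0.90). The chosen Epha5 probe was nearest to Atxn7 (1.00) and Wdr89 (1.00), and Ephb3 to Mtfr2 (1.00) and Srek1 (1.00). The genes with an r above 0.85 numbered 220 for Epha5 and 220 for Ephb3, and 206 were in both sets, 93.6% of each. Epha8 had 247 such genes and Ephb1 127, of which 14 were shared, 5.67% of the first set and 11.0% of the second. Ephb2 had none, its nearest being Erich6 (0.68) and Lrrc2 (0.66), while the second Epha5 probe had 34, led by Nexmif (0.94) and Insyn2a (0.94).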

How the data were processed

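Single-colour Agilent SurePrint G3 arrays of 28 brain fractions were used. Per the file headers the authors ran Feature Extraction 10.5.1.1 and deposited one processed intensity per spot, together with median signal and background; the deposited series table holds log2 values of the same arrays, centred per array within 0.00758 of the 75th percentile used here, after a per-chip normalization whose details are not given in the sources used here. Outlier spots were left out, spots of a probe were averaged, and log2 signal minus the array's 75th percentile was taken. Probes were named through RefSeq (GRCm38.p6) accessions, 27235 of 55681 matching. The 32118 tested probes rose well over background on 1 or more arrays of every plane and had lost no spot.

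Each plane was fitted alone in limma 3.58.1 (R 4.3.3), with a natural cubic spline of 3 degrees of freedom (2 in the horizontal plane), an F-test and Benjamini-Hochberg adjustment. In simulated planes 100 probes were given a log2 difference of 1 and 100 others a difference of 2. The rest of the 32118 had none. The fit returned the sizes. It called only part of these differences in the coronal plane, more of the larger than of the smaller, and none in the other planes. Changed probes were far rarer than the calls in the real planes, which makes the adjusted threshold harder to pass. The recovered shares therefore do not measure what the real fits missed. A missed threshold in the horizontal or sagittal plane is not read as no change. Slides were read from array barcodes. The normexp alternative used the median signal in place of the mean. Spacing is given differently in the sources, so fraction numbers were used. Named were the receptors, ephrins and family members, at most 3 signalling partners per plane, and the 2 most alike genes per receptor. The members and lists were chosen with earlier results of these data known. The number of arrays limits the precision.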

Additional observations from a re-analysis of the deposited data

Results flagged for a closer look

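In each of 20 sets, the 6 horizontal or 10 sagittal fractions of a receptor, the gap of the highest and lowest fraction to its neighbour was compared with Dixon's critical value; chance would give about 1 in 20 sets, and 2 were found. Epha3 stood far below the other fractions in sagittal fraction 1, at -3.88 against -2.16 in fraction 10, a gap of 0.726 of the whole range; the probe was not well above background on that array, so the low value is a bound and the gap and its share of the range are not measured sizes. Ephb6 stood far below in sagittal fraction 9, at 2.46 against 3.35 in fraction 1, a gap of 0.512 of the range. The second, dimmer Ephb6 probe went the other way. It had its highest sagittal value in fraction 9, at -1.90 against -3.61 in fraction 4, the next highest. The arrays of sagittal fractions 1 and 9 had 75th percentiles of 135 and 176, the lowest of all. Their part in the low values of Epha3 and Ephb6 was not tested.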

How the results depend on the processing

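The shape of some called curves changed with 1 spline degree of freedom fewer: the horizontal fitted difference of Ephb1 fell to 0.024 and that of Epha8 to 0.42, and the highest point of Epha5 and Ephb3 moved from sagittal fraction 1 to 10. The difference between the fractions of highest and lowest fitted level took negative values for Epha3, called in no plane. It was -0.55 within 1 coronal slide and -0.045 without sagittal fractions 1 and 9. With 1 sagittal fraction left out it ran from -0.055 (without fraction 1) to 2.16. The highest and lowest fractions of the main fits were 12 and 8 (coronal) and 5 and 1 (sagittal). The fits with negative values lacked coronal fraction 12 or sagittal fraction 1, so whether the difference turned cannot be read from them. The coronal count of 8 was 8 with the array median, quantile normalization, normexp background, both other filters on dim probes, a spline with 1 degree of freedom fewer and the series table, but 0 with a slide term and 5 within 1 slide. The horizontal count of 3 became 8 with the array median, 5 with normexp and 0 with 1 spline degree of freedom fewer. The sagittal count of 3 became 0 with the array median, 1 with quantile normalization, 5 with normexp, 0 within 1 slide and 0 without fractions 1 and 9, a setting chosen after seeing the data. Leaving out each fraction in turn gave 6 to 8 calls in the coronal plane, 0 to 4 in the horizontal and 0 to 6 in the sagittal; the coronal calls lost were those of Epha5 (without fraction 2, 4, 9 or 11) and Ephb3 (without fraction 11). Over all probes the coronal count of 10792 became 239 with a slide term, 4096 within 1 slide and 17149 with no filter. It was 7831 to 11022 with 1 fraction left out. The horizontal count of 5078 became 19135 with the array median, 8992 with normexp, 1 with 1 degree of freedom fewer and 0 to 5678 with 1 fraction left out. The sagittal count of 4743 became 321 with the array median, 2608 with quantile normalization, 14221 with normexp, 19073 with no filter, 2511 with a slide term, 0 within 1 slide, 926 without fractions 1 and 9, and 0 to 15126 with 1 fraction left out. The cause was not tested. The median r of the receptor pairs ran from -0.01 with quantile normalization to 0.29 with the array median. No paired analysis was possible because the fraction numbers name positions along different axes of different brains and no test compared the planes. With 1 array per fraction and 1 mouse per plane, p-values measure only the spread around the curve within a brain.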
